A study of Danio rerio with 6 samples.

Results

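Apolipoprotein B (apoB) lipoprotein assembly and secretion was followed here through 6 genes of the larval zebrafish liver: the 3 apoB paralogs apoba, apobb.1 and apobb.2, the lipid transfer gene mttp, the small GTPase gene sar1b and tm6sf2. All 6 were found among the 23745 genes of the deposited table. Of these, 5 were found by symbol and 1, mttp, by its NCBI gene number (406207), because the table lists it under the older symbol mtp. The row tm6sf2 (gene 791179) carries the RefSeq symbol tm6sf2b. The other gene numbers are 566465 for apoba, 321166 for apobb.1, 100330435 for apobb.2 and 554177 for sar1b.

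ApoB is the large structural protein of very low density lipoprotein and chylomicrons, and each particle carries a single copy that is not exchanged with other particles. In the endoplasmic reticulum of the hepatocyte, microsomal triglyceride transfer protein, the product of mttp, loads lipid onto apoB as it is made, working as a dimer with protein disulfide isomerase (p4hb). The particle then leaves in transport carriers built by the COPII coat, which the GTPase Sar1b sets up on the membrane. TM6SF2 is a membrane protein of the secretory route that acts on the lipid content of the particle. In humans, loss of MTTP causes abetalipoproteinemia, loss of SAR1B causes chylomicron retention disease, and variants of TM6SF2 are known from fatty liver. In zebrafish, mttp mutants are known as stalactite.

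Larvae of the lcat OE group carried a transgene in which the fabp10a promoter, active in hepatocytes, drives lcat and, after a T2A peptide, the red protein mCherry. They also carried fabp10a:eGFP, the green reporter used for sorting. Larvae of the CTL group carried fabp10a:eGFP alone. Lecithin-cholesterol acyltransferase, the product of lcat, esterifies cholesterol on circulating lipoproteins. Hepatocytes were sorted by fluorescence from larvae of both groups at 6 days post fertilisation, 2000 cells per library and 3 libraries per group, to look for transcript changes that go with early hepatic steatosis. No group carried mCherry without lcat, so lcat, mCherry and differences between the fish lines cannot be told apart. The labels do not say whether replicates came from separate clutches or sorts, so p-values measure the spread between these libraries, which may be technical.

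The libraries held 23431234 to 24890856 counts in lcat OE and 23336591 to 23695610 in CTL. Counts scaled to library size (CPM) below use TMM factors, which correct library sizes for composition. The factor was 0.869 in lcat OE 3, against 0.998 to 1.06 in the other 5 libraries, so that library stands apart on scales without this correction. The gene lcat averaged 2608 CPM in lcat OE and 138 CPM in CTL, with no overlap. Across all 14096 genes tested with edgeR's quasi-likelihood test, 32.6% passed an adjusted p of 0.05 between the groups, 16.3% higher and 16.3% lower in lcat OE, and the values of the 3 lcat OE and 3 CTL libraries did not overlap in 47.7% of genes as CPM and 47.1% as TPM. Of the calls, 49.9% were higher with TMM factors, 38.8% with library totals and 30.8% with limma on log2(TPM + 1). Hepatocyte markers held 21.4% to 22.3% of counts in lcat OE and 17.6% to 19% in CTL, with 3 of 20 higher and 2 lower. Most of these counts fell on apoa2, which averaged 137859 CPM in lcat OE and 103604 CPM in CTL. The higher markers were apoa2, tfa and apom, and the lower ones were fgb and hamp. Epidermal markers held 0.875% to 1.53% of counts in lcat OE and 0.0767% to 0.143% in CTL, with 11 of 16 higher and 2 lower. Exocrine pancreas markers held 0.00484% to 0.0243% in lcat OE and 0.0722% to 0.178% in CTL, with 6 of 13 lower. Summed markers of skeletal muscle and of pigment cells and photoreceptors were also below CTL in every lcat OE library, with 6 of 11 and 9 of 11 tested genes lower, and those of macrophages were above, with 5 of 7 higher and 1 lower. No marker in any list was at 0 in all libraries, and the part of these differences in the apoB results was not tested.

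Of the 5 members that could be tested, 1 was lower in lcat OE and none was higher. Over all genes tested, 16.3% were lower and 16.3% were higher. The member that fell was apoba, to 0.668-fold of CTL. The more abundant paralog apobb.1 had a fold of 0.836, mttp of 0.966, apobb.2 of 1.02 and sar1b of 1.16, and none of these passed edgeR's test. At an unadjusted p under 0.05 the edgeR counts were the same, 1 lower and 0 higher, and DESeq2 also called 1 lower and 0 higher. The 16.3% shares are for adjusted p. Shares of all genes at unadjusted p are larger and were not computed. The sixth member, tm6sf2, had too few reads to be tested. The median log2 fold change of the 5 tested members was -0.05, against -0.02 over all genes tested. In bulk RNA, fewer cells of a type and less RNA per cell cannot be told apart.

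**Figure D1:**
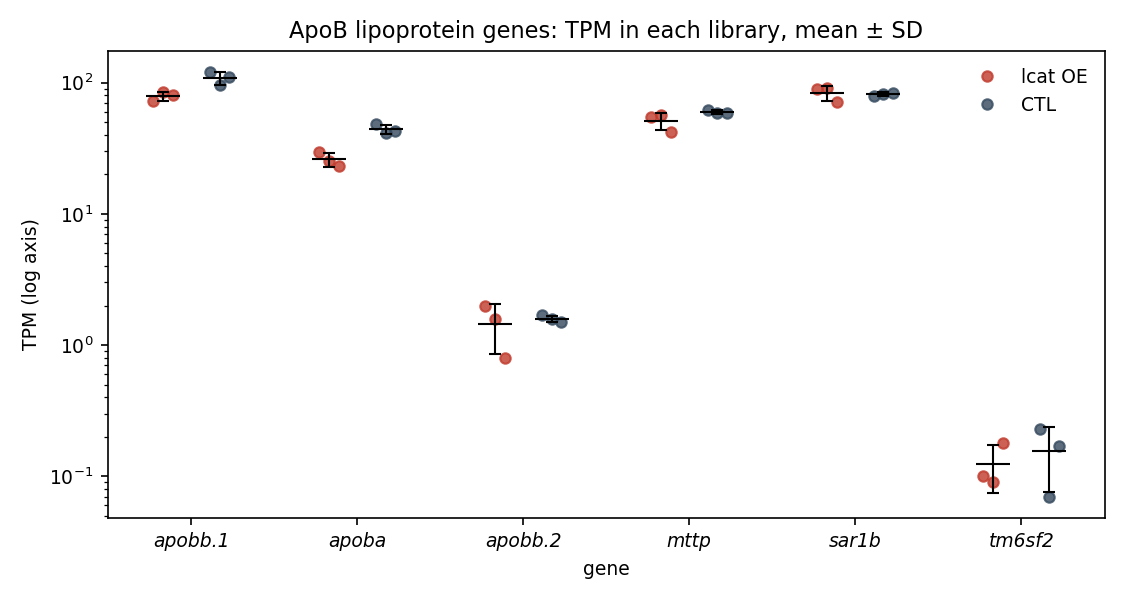
TPM of the 6 genes in each library on a log axis, with lcat OE in red and CTL in dark blue; points are libraries and bars are mean ± SD (n = 3 each). For apoba the lcat OE libraries lie between 23.2 and 29.5 TPM, all below the CTL libraries, while tm6sf2 stays at or below 0.23 TPM in every library.

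The levels of the genes, as TPM, which is scaled by transcript length and so can be set side by side between genes, spanned a wide range. In CTL the order by mean was apobb.1 at 108 ± 12.3 TPM, sar1b at 81.5 ± 2.83, mttp at 59.8 ± 1.93, apoba at 44.1 ± 3.80, apobb.2 at 1.59 ± 0.0862 and tm6sf2 at 0.157 ± 0.0808 (SD, n = 3). Each neighbouring pair in the CTL order was separated in all 3 libraries. In lcat OE the means were 83.7 ± 11.1 TPM for sar1b, 79.1 ± 6.30 for apobb.1, 51.1 ± 7.71 for mttp, 26.0 ± 3.21 for apoba, 1.45 ± 0.604 for apobb.2 and 0.123 ± 0.0493 for tm6sf2 (SD, n = 3). There sar1b and apobb.1 overlapped, with 70.9 to 91.2 TPM and 72.45 to 84.96 TPM, so their order was not resolved. Ranked by TPM among all genes of the table, apobb.1 stood at place 651 to 733 in lcat OE and 542 to 660 in CTL, and apoba at place 1341 to 1434 in lcat OE and 959 to 1085 in CTL.

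The paralog apoba encodes one of the fish apoB proteins. It had 29.51, 25.23 and 23.23 TPM in lcat OE 1 to 3 and 48.42, 41.33 and 42.51 TPM in CTL 1 to 3. All lcat OE libraries were below all CTL libraries, a pattern that 33.1% of tested genes shared in TPM. On the CPM scale apoba had 464, 415 and 443 in lcat OE and 753, 591 and 635 in CTL, and again the groups did not overlap. The log2 fold change of apoba on counts was -0.58 (SE 0.12, 95% interval -0.85 to -0.32, edgeR adjusted p = 0.00440). This fall was seen with all 19 alternatives, at -0.76 to -0.46 and with adjusted p from 0.000436 to 0.0227. Of all genes tested, 20.7% had a lower log2 fold change than apoba. Among the 811 genes of at least 100 CPM, 33.3% were called and 14.1% were called lower. The log2 fold changes of these 811 genes had a median of 0.07 and quartiles of -0.19 and 0.30, with apoba below the lower quartile.

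The paralog apobb.1 was the most abundant apoB transcript in every library. It had 72.45, 84.96 and 79.98 TPM in lcat OE and 119.46, 95.05 and 109.84 TPM in CTL. On this scale the groups did not overlap, with lcat OE lower, as in 33.1% of tested genes. As CPM apobb.1 had 978, 1199 and 1308 in lcat OE and 1595, 1166 and 1407 in CTL. There CTL 2 fell inside the lcat OE range, and the 2 scales disagree most in lcat OE 3, which stood at 74.0% of the CTL mean in TPM and 94.1% in CPM. The log2 fold change of apobb.1 on TMM-scaled counts was -0.26 (SE 0.15, 95% interval -0.58 to 0.07), with an edgeR adjusted p = 0.207. That estimate lay within the interquartile range of all genes tested (-0.46 to 0.39). It was below that of the 811 genes of at least 100 CPM (-0.19 to 0.30). With library totals in place of TMM factors the log2 fold change of apobb.1 was -0.36 (edgeR adjusted p = 0.0187), where the median of all genes moved to -0.11. On log2(TPM + 1) it was -0.44 (limma adjusted p = 0.0192). It was -0.14 without lcat OE 1 (edgeR adjusted p = 0.535) and -0.14 without CTL 1 (edgeR adjusted p = 0.561), and no fit with 1 library left out called it.

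The third paralog, apobb.2, was far less abundant. It had 1.99, 1.57 and 0.80 TPM in lcat OE and 1.68, 1.57 and 1.51 TPM in CTL, from 458, 386 and 195 counts and 372, 335 and 329 counts. The lcat OE libraries spread on both sides of the CTL values, with lcat OE 1 highest and lcat OE 3 lowest of all 6. Its log2 fold change was 0.02 (SE 0.23, 95% interval -0.51 to 0.56, edgeR adjusted p = 0.95), with a sign that changed between settings. In the RefSeq assembly GRCz12tu, 482 protein-coding genes lie between apobb.1 and apobb.2 on the chromosome they share, so they are not neighbours there. All 36 member values in the count table were whole numbers, while 10.8% to 11.8% of all genes in a library held fractional counts. For no member had the estimation thus left a fraction of a read, although reads common to paralogs may still have been assigned to 1 of them.

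Summed over the paralogs, apoB had 103.95, 111.76 and 104.01 TPM in lcat OE and 169.56, 137.95 and 153.86 TPM in CTL, a difference of -47.2 TPM between the group means. Of this, -29.0 TPM came from apobb.1 and -18.1 TPM from apoba. All lcat OE sums were below all CTL sums, a pattern that 33.1% of tested genes showed in TPM. As CPM the groups were close, with 1759 in lcat OE 3 as the highest lcat OE sum and 1771 in CTL 2 as the lowest CTL sum. With the paralogs counted as 1 gene in the fit, the log2 fold change of the apoB sum was -0.36 (SE 0.12, 95% interval -0.64 to -0.09), a value that does not depend on how reads were split between the paralogs. No p-value is given for this sum, since it runs over genes chosen with earlier results known. The interval does not allow for that choice either and is given as a description. The p-values of the single members and of the paralog shares do not allow for that choice either. The log2 fold change of the sum lay between -0.52 and -0.24 over the 19 alternatives, with the weakest fall (-0.24) without CTL 1.

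**Figure D2:**
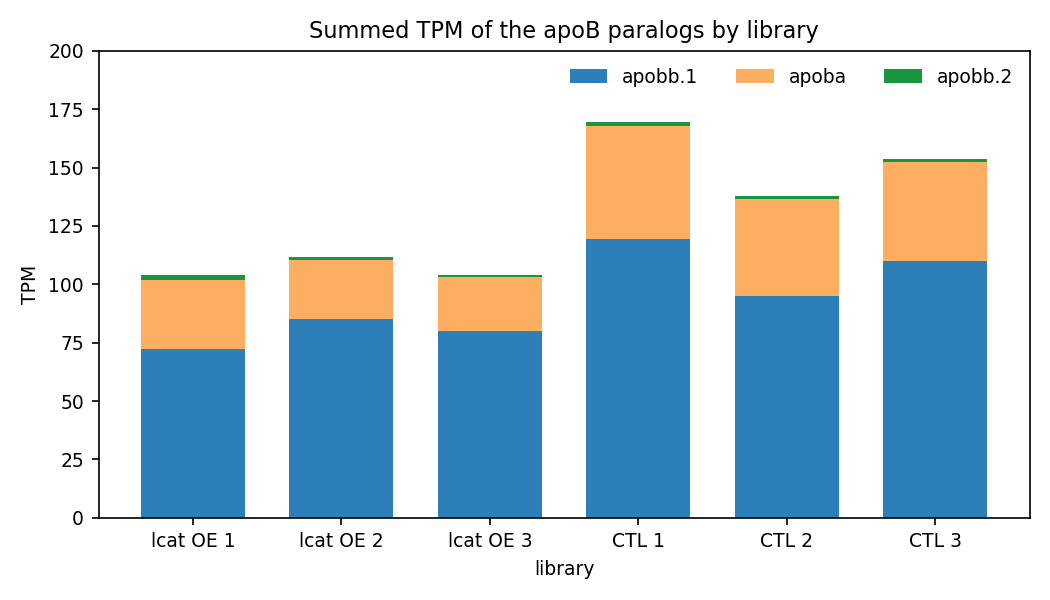
Stacked TPM of the apoB paralogs apobb.1 (blue), apoba (orange) and apobb.2 (green) in each library, lcat OE on the left and CTL on the right. The lcat OE sums reach 104 to 112 TPM and the CTL sums 138 to 170 TPM, and apobb.1 is the largest part of every bar.

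The shares of the paralogs in the apoB pool were set against each other next. The share of apoba in the summed apoB TPM was 28.4%, 22.6% and 22.3% in lcat OE and 28.6%, 30.0% and 27.6% in CTL. Two-sided exact permutation tests over the libraries, whose smallest possible p is 0.1, gave p = 0.2 for this share (difference of -4.28 percentage points, adjusted p = 0.4 over 3 paralogs). The value in lcat OE 1 lay within the CTL range, while lcat OE 2 and 3 were below it. The share of apobb.1 was 69.7%, 76.0% and 76.9% in lcat OE and 70.5%, 68.9% and 71.4% in CTL (difference of 3.96 points, exact permutation p = 0.3, adjusted p = 0.4). The share of apobb.2 was 1.91%, 1.4% and 0.769% in lcat OE and 0.991%, 1.14% and 0.981% in CTL (difference of 0.33 points, exact permutation p = 0.4, adjusted p = 0.4). The difference in the apobb.1 share was 6.21 points without lcat OE 1 and 2.61 without lcat OE 3, and that in the apobb.2 share was 0.050 and 0.62 points. With 3 libraries per group no share could reach a p of 0.05, so these tests do not settle whether the paralogs differ in their change.

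The gene mttp encodes the lipid-transferring subunit of the complex that loads apoB. It had 54.36, 56.65 and 42.30 TPM in lcat OE and 62.02, 58.67 and 58.70 TPM in CTL. On this scale all lcat OE libraries were below CTL, as in 33.1% of tested genes, and lcat OE 3 was well below the rest. As CPM it had 182, 199 and 172 in lcat OE and 206, 180 and 187 in CTL, and the groups overlapped. The log2 fold change of mttp was -0.05 (SE 0.11, 95% interval -0.29 to 0.19, edgeR adjusted p = 0.765). Its sign changed when lcat OE 3 or CTL 1 was left out (0.021 and 0.014). It was -0.14 with library totals and -0.23 on log2(TPM + 1), and passed in neither.

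The gene sar1b encodes the GTPase that starts COPII coat assembly. It had 88.85, 91.22 and 70.94 TPM in lcat OE and 78.44, 82.13 and 84.00 TPM in CTL, with lcat OE 1 and 2 above and lcat OE 3 below all CTL libraries. As CPM it had 191, 205 and 184 in lcat OE and 167, 161 and 171 in CTL, so that on this scale all lcat OE libraries were higher. In CPM the groups did not overlap, in either direction, in 47.7% of tested genes. The log2 fold change of sar1b was 0.22 (SE 0.10, 95% interval -0.01 to 0.44) and missed the threshold (edgeR adjusted p = 0.133). Without lcat OE 3 it was 0.27 and reached an adjusted p = 0.0497 in edgeR, and over the other 18 alternatives it did not pass. It was 0.13 with library totals and 0.029 on log2(TPM + 1).

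The related GTPase genes, chosen after the table was seen, were less abundant: sar1ab had 5.75 to 7.79 TPM in lcat OE and 5.82 to 7.19 TPM in CTL. Its log2 fold change was 0.28 (SE 0.12, edgeR adjusted p = 0.116). The gene sar1aa had 0.56 to 0.65 TPM in lcat OE and 0.60 to 0.83 TPM in CTL (log2 fold change 0.02, SE 0.22).

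Almost no reads came from the row tm6sf2, with 3, 3 and 6 counts in lcat OE and 7, 2 and 5 counts in CTL. The groups overlapped, and a difference was not detectable at this depth: with no filter on low counts the log2 fold change of tm6sf2 was -0.15 with a 95% interval of -1.96 to 1.66. The paralog that RefSeq names tm6sf2a (gene 405880), looked up after the table was seen, had 8.51, 9.39 and 6.30 TPM in lcat OE and 8.23, 9.78 and 10.08 TPM in CTL. Its log2 fold change was -0.03 (SE 0.13, 95% interval -0.32 to 0.25, edgeR adjusted p = 0.871). Most TM6SF2-type transcript in these libraries was thus counted on the tm6sf2a row.

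**Figure D3:**
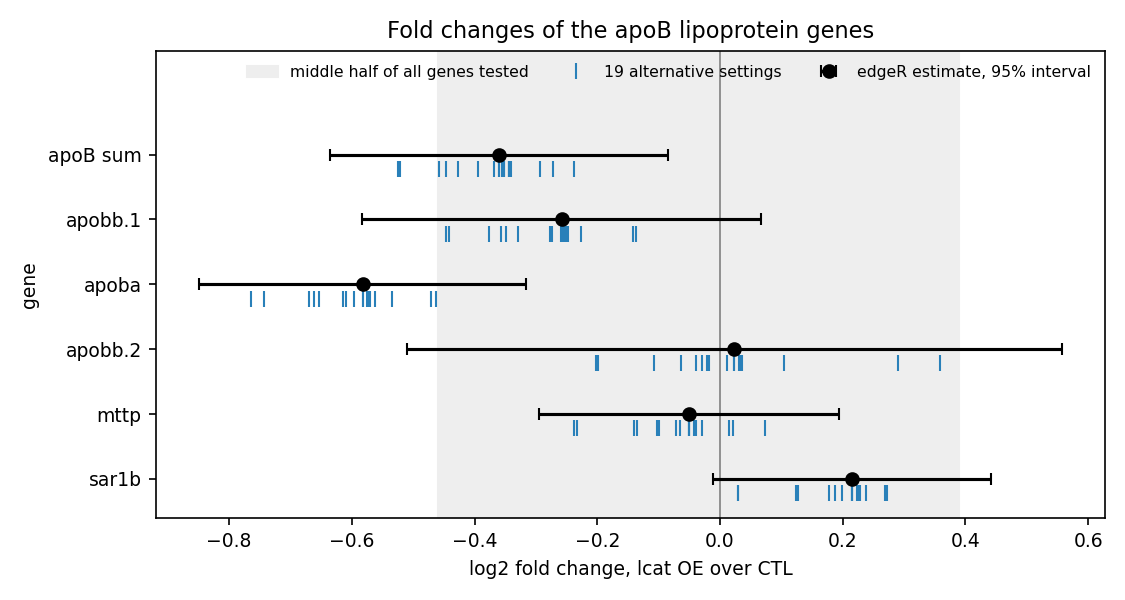
Log2 fold change of lcat OE over CTL for the apoB sum and each tested gene, with its 95% interval in black, the 19 alternative settings as blue ticks and the interquartile range of all genes tested in grey. The interval of apoba (-0.85 to -0.32) lies below 0, and those of apobb.1, apobb.2, mttp and sar1b include 0. Among the 811 genes of at least 100 CPM the interquartile range, not drawn, was -0.19 to 0.30.

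Ratios of TPM within a library do not depend on how libraries are scaled to each other. Summed apoB over mttp was 1.91, 1.97 and 2.46 in lcat OE and 2.73, 2.35 and 2.62 in CTL, with lcat OE 3 inside the CTL range. Summed apoB over sar1b was 1.17, 1.23 and 1.47 in lcat OE and 2.16, 1.68 and 1.83 in CTL, and all lcat OE libraries were lower. The ratio of mttp to sar1b was 0.612, 0.621 and 0.596 in lcat OE and 0.791, 0.714 and 0.699 in CTL, also without overlap. The ratio of apobb.1 to apoba was 2.46, 3.37 and 3.44 in lcat OE and 2.47, 2.3 and 2.58 in CTL. These ratios are given as descriptions, with no test. For single genes the groups did not overlap in TPM in 47.1% of those tested, and the share among ratios of other genes was not computed.

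**Figure D4:**
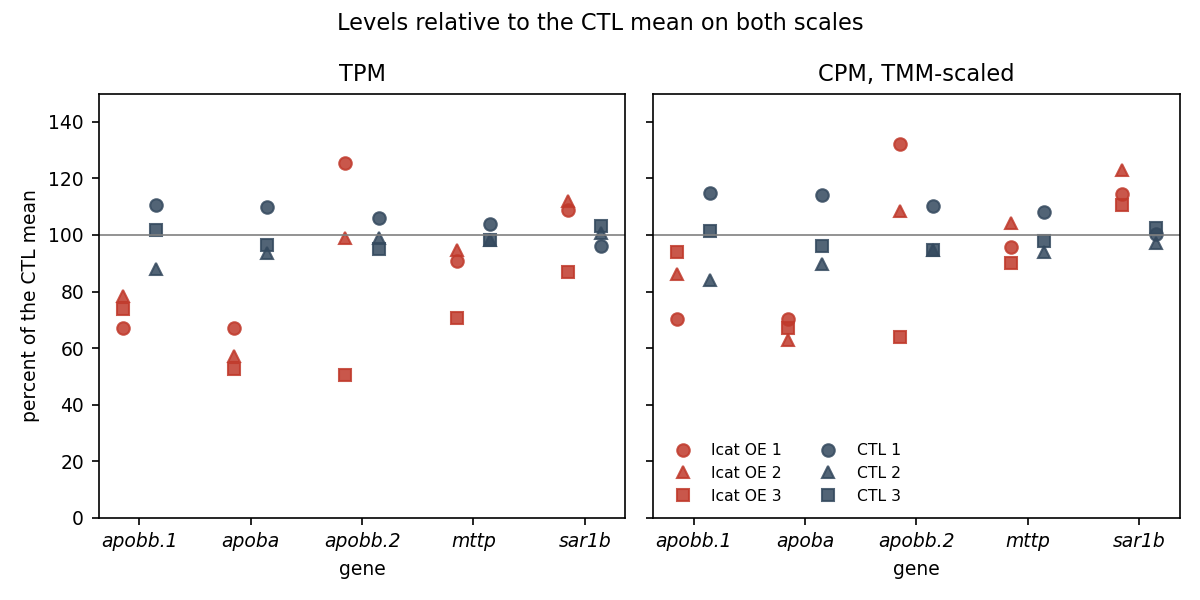
Each library as a percent of the CTL mean, in TPM on the left and TMM-scaled CPM on the right; lcat OE in red, CTL in dark blue, and the marker shape gives the replicate. The square of lcat OE 3 sits at 70.7% for mttp and 87.0% for sar1b in TPM, and at 90.0% and 111% in CPM, while apoba is under 71% in every lcat OE library on both scales.

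ApoB and mttp are also active in the intestine, and markers of intestinal epithelium were checked for that reason. The 18 markers held 0.187% to 0.209% of counts in lcat OE and 0.203% to 0.232% in CTL, most of them on apoa4b.1, which had 1569 CPM in lcat OE and 1693 CPM in CTL. Of the 18 markers, 8 had enough reads to be tested, with 2 higher and 2 lower. Over all genes tested, 16.3% were higher and 16.3% lower. The higher ones were the fatty acid binding protein gene fabp2, which averaged 127 CPM in lcat OE and 72.7 CPM in CTL (log2 fold change 0.80, edgeR adjusted p = 0.00242), and the apolipoprotein gene apoa4b.2, with 62.96 to 71.71 CPM in lcat OE and 17.03 to 21.6 CPM in CTL (log2 fold change 1.78, edgeR adjusted p = 8.7e-06). The lower ones were ada, with 49.3 CPM in lcat OE and 67.3 CPM in CTL, and tm4sf4, with 44.2 CPM in lcat OE and 103 CPM in CTL. The other 10 had too few reads to be tested. Among them vil1, a brush border actin-binding protein, had 8 counts in all of lcat OE and 28 in all of CTL, the peptide transporter slc15a1b had 1 and 19, and the ileal fatty acid binding protein gene fabp6 had 68 and 4. These genes were named after their values were seen. Reads of fabp6 came almost all from lcat OE 3, at 3.08 CPM, against 0.0822 CPM in lcat OE 1 and 0 in lcat OE 2. The hepatocyte marker fabp10a, whose promoter drives the transgenes, averaged 9853 CPM in lcat OE and 8990 CPM in CTL (log2 fold change 0.13, edgeR adjusted p = 0.427; -0.03 on log2(TPM + 1)).

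Around these genes, 5 lists with 85 tested genes described the rest of the pathway. Of these genes 11 were higher and 15 lower in lcat OE, 30.6% in all, close to the 32.6% over all genes. The split depended on the scaling, with 4 higher and 23 lower with library totals and 1 higher and 24 lower on log2(TPM + 1). Over all 14096 genes tested, library totals called 1672 higher and 2639 lower. On log2(TPM + 1) these were 1344 and 3024. The count of higher genes was also 6 without lcat OE 1 and 5 without lcat OE 2, CTL 2 or CTL 3.

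The list of the MTP partner and luminal folding factors had 2 of 12 higher (16.7%) and 0 lower by edgeR. The shares over all genes tested were 16.3% higher and 16.3% lower, so the higher count was near that share. The list median log2 fold change was 0.07, against -0.02 over all genes. At an unadjusted p under 0.05 the list had 3 higher and 0 lower, and DESeq2 called 3 higher and 1 lower. For the unadjusted counts the share over all genes was not computed, and it exceeds 16.3% in each direction. The edgeR count of higher genes was 1 without lcat OE 2, CTL 1, CTL 2 or CTL 3 and 3 without lcat OE 3. It was also 1 with library totals, where 1672 of all 14096 genes tested were higher. The count of lower genes was 1 without CTL 1 and 2 without lcat OE 2. The partner subunit gene p4hb had 174 CPM in lcat OE and 157 CPM in CTL (log2 fold change 0.15, SE 0.12, edgeR adjusted p = 0.390). The lectin chaperone gene canx rose to 246, 323 and 208 CPM in lcat OE, against 132, 133 and 138 CPM in CTL, a log2 fold change of 0.95 (SE 0.15, edgeR adjusted p = 0.00104). Its partner oxidoreductase gene pdia3 rose by 0.43 (edgeR adjusted p = 0.0308), a call that was lost without lcat OE 2 (0.103), CTL 1 (0.0727), CTL 2 (0.103) or CTL 3 (0.0901), with library totals (0.0999) or on log2(TPM + 1) (limma, 0.284), and kept in 10 of 19 alternatives. The chaperone gene hspa5 (BiP) averaged 575 CPM in lcat OE and 945 CPM in CTL and did not pass (-0.72, SE 0.35, edgeR adjusted p = 0.181). Its CTL libraries were split, at 482, 1111 and 1243 CPM, with CTL 1 below all lcat OE libraries (521, 660 and 545 CPM).

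In the list of the COPII coat and of the exit of large cargo from the endoplasmic reticulum, 7 of 23 genes were higher and 4 lower. These were 30.4% and 17.4%, or 47.8% called, against 16.3% higher and 16.3% lower over all genes tested. The list median log2 fold change was 0.25, against -0.02 over all genes. The coat gene sec13 rose to 36.4, 37.2 and 29.8 CPM in lcat OE, against 23.8, 21.2 and 20.5 CPM in CTL (log2 fold change 0.66, SE 0.13, edgeR adjusted p = 0.00271). The cargo receptor gene tmed2 rose by 0.65 (SE 0.14). Both calls were lost on log2(TPM + 1), with limma adjusted p = 0.0586 and 0.0747. Lower were sec24d (-0.56, SE 0.12) and sec24a (-0.49, SE 0.11), which encode cargo-binding coat subunits, and klhl12 (-1.19, SE 0.25), an adaptor for the ubiquitin ligase known to enlarge COPII carriers for collagen. The fourth lower gene was preb, whose product (Sec12) is the exchange factor that activates Sar1 (-0.55, SE 0.14, edgeR adjusted p = 0.0135). The other higher genes were tmed10 (0.53), sec23a (0.48), lman1 (0.47), mcfd2 (0.45) and sec23b (0.37). These genes, sec24a and preb were named after their values were seen. The large-cargo receptor genes mia2, mia3 and surf4 did not pass, at -0.01, -0.11 and 0.25. The paralog surf4l narrowly missed the threshold (0.47, SE 0.17, edgeR adjusted p = 0.0522). The count of 7 higher genes was 3 without lcat OE 1, lcat OE 2 or CTL 3 and 2 without CTL 2. It was 2 with library totals and 0 on log2(TPM + 1). Over all 14096 genes tested, those settings called 1672 and 1344 higher.

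In the list of neutral lipid supply and particle expansion, 1 of 14 genes was higher (7.14%) and 2 lower (14.3%). The shares over all genes tested were 16.3% higher and 16.3% lower. The list median log2 fold change was -0.17, against -0.02 over all genes. The list had 0 higher and 5 lower with library totals and 0 higher and 6 lower on log2(TPM + 1). Over all 14096 genes tested, library totals called 1672 higher and 2639 lower. On log2(TPM + 1) these were 1344 and 3024. The cholesterol acyltransferase gene soat1 fell to 7.81, 4.61 and 10.8 CPM in lcat OE, against 15.9, 20.4 and 18.3 CPM in CTL. Its log2 fold change was -1.24 (SE 0.28, edgeR adjusted p = 0.0109, and 0.0501 without lcat OE 1). The more abundant soat2, named after its values were seen, had 87.5 CPM in lcat OE and 147 CPM in CTL. It did not pass (-0.75, SE 0.26, edgeR adjusted p = 0.0621). The lipase gene pnpla3 fell by 0.52 on the log2 scale (SE 0.13, edgeR adjusted p = 0.0130, but 0.0510 without lcat OE 1 and 0.0555 without CTL 1). The gene vmp1, whose product acts on lipid release from the endoplasmic reticulum membrane, rose by 0.38 (edgeR adjusted p = 0.0302), and this call was lost without lcat OE 1, lcat OE 2, CTL 2 or CTL 3 (0.0540, 0.101, 0.0933 and 0.119), with library totals (0.156) and on log2(TPM + 1) (limma, 0.383). The triglyceride synthesis gene dgat2 had 71.4 CPM in lcat OE and 89.8 CPM in CTL (edgeR adjusted p = 0.0613), and the abundant gene pla2g12b, required for lipoprotein particle expansion, had 333 CPM in lcat OE and 340 CPM in CTL (log2 fold change -0.03, SE 0.11). The counts of this list were 0 higher and 0 lower without lcat OE 1, 0 higher without lcat OE 2, CTL 2 or CTL 3, 4 lower without lcat OE 3 and 1 lower without CTL 1.

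In the list of apoB sorting, degradation and uptake, 3 of 17 genes were lower (17.6%) and 0 higher by edgeR. Among all genes tested 16.3% were lower and 16.3% higher, so the lower count was near that share. At an unadjusted p under 0.05 the list had 3 lower and 2 higher. The share of all genes at that unadjusted cut was not computed, and it exceeds 16.3% in each direction. Its median log2 fold change was -0.20, against -0.02 over all genes. The sorting receptor gene sort1a fell to 3.82, 4.41 and 4.86 CPM in lcat OE, against 7.92, 9.04 and 7.16 CPM in CTL (log2 fold change -0.88, SE 0.17, edgeR adjusted p = 0.00249). The ubiquitin ligase genes syvn1 (-0.63, SE 0.15) and amfra (-0.43, SE 0.11), whose mammalian counterparts act in degradation from the endoplasmic reticulum, were also lower. The amfra call was lost without CTL 3 (edgeR adjusted p = 0.0686). The paralog sort1b, named after its values were seen, lay in the other direction from sort1a and did not pass. It had 3.43 CPM in lcat OE and 2.23 CPM in CTL (log2 fold change 0.61, SE 0.26, edgeR adjusted p = 0.0955). The list had 2 lower genes without CTL 3, 5 with library totals, and 1 higher gene without CTL 2. With library totals 2639 of all 14096 genes tested were lower. DESeq2 called 3 lower and 0 higher. The receptor gene ldlra, whose product takes up apoB particles, had 282 CPM in lcat OE and 344 CPM in CTL and did not pass (-0.29, SE 0.16, edgeR adjusted p = 0.202).

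In the list of transcription factors known to act on apoB or MTP genes, 6 of 19 were lower (31.6%) and 1 higher (5.26%). Among all genes tested 16.3% were lower and 16.3% higher. The list median log2 fold change was -0.38, against -0.02 over all genes. On log2(TPM + 1) the list had 10 lower and 0 higher, where 3024 of all 14096 genes tested were lower and 1344 higher. The carbohydrate-responsive factor gene mlxipl fell to 3.78, 5.69 and 4.81 CPM in lcat OE, against 17.5, 19.9 and 21.1 CPM in CTL (log2 fold change -2.03, SE 0.17, edgeR adjusted p = 1.79e-05). The liver factor gene foxa3 fell by 1.42 on the log2 scale (SE 0.19), srebf1, a regulator of lipid synthesis, by 1.11 (SE 0.21), and xbp1, a factor of the secretory pathway, by 0.87 (SE 0.14). These 4 genes passed in all 19 alternatives. The higher gene, named after its values were seen, was foxa2 (log2 fold change 0.73, SE 0.16, edgeR adjusted p = 0.00614). The factor gene hnf4a, known to activate apoB and MTP genes in mammals, had 21.6 CPM in lcat OE and 27.8 CPM in CTL and missed the threshold (-0.36, SE 0.13, edgeR adjusted p = 0.0540).

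**Figure D5:**
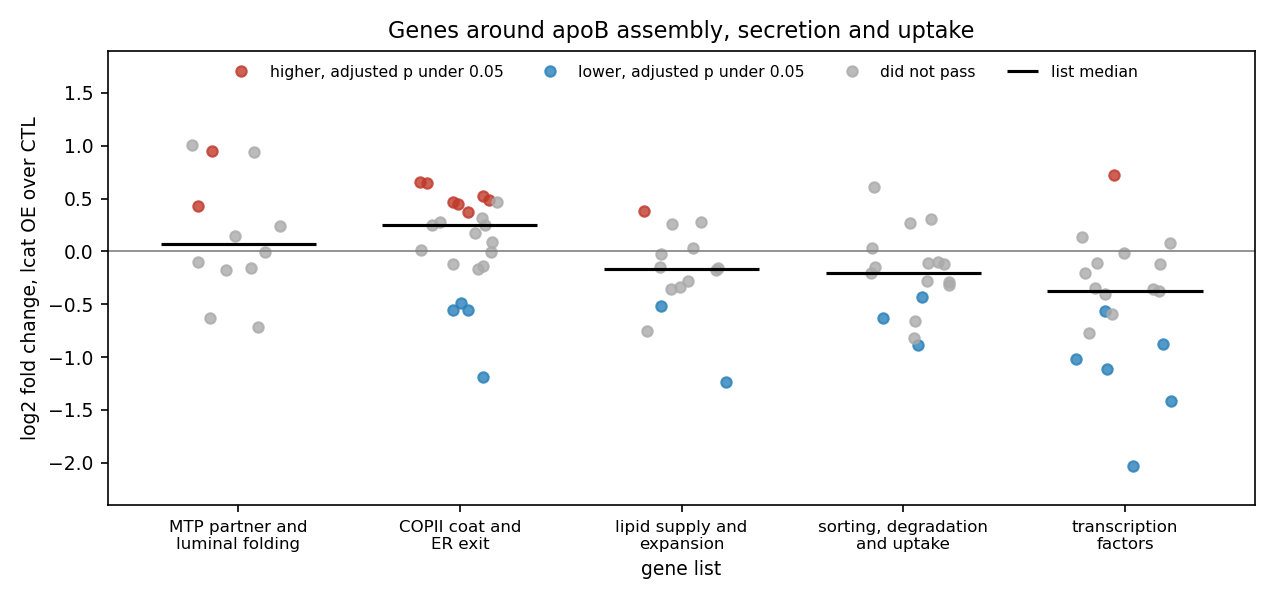
Log2 fold change of lcat OE over CTL for every tested gene of the 5 lists, with genes past an adjusted p of 0.05 in red (higher) or blue (lower), the rest in grey and the list median as a black line. Medians run from 0.25 in the COPII list to -0.38 in the transcription factor list, and each list holds genes on both sides of 0.

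Genes with a pattern over the 6 libraries most like that of apobb.1 were sought among 3790 candidates of at least 10 CPM. Members and symbols that begin like clone or locus names were left out, which also dropped any other symbol beginning with ch. Likeness was the mean absolute difference of centred log2 CPM. The closest was lrp1ab, which encodes a large receptor of the LDL receptor family, at 0.036. It had 38.1, 47.4 and 52.2 CPM in lcat OE and 63.9, 49.0 and 58.9 CPM in CTL. It was followed by serinc2l at 0.042, dalrd3 at 0.050, fam222bb at 0.050 and bnip2 at 0.054. These genes were picked as the closest, so every other candidate differs more from apobb.1 by that choice. For the other members the difference was 0.180 for mttp, 0.211 for apoba, 0.240 for sar1b and 0.352 for apobb.2. Places were also counted from the closest among the 14096 genes tested, with apobb.1 itself at place 1. There mttp stood at place 1702, apoba at 2786, sar1b at 3793 and apobb.2 at 7427.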

How the data were processed

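RNA of 6 sorted hepatocyte libraries (3 lcat OE, 3 CTL, grouped by sample title) was measured by poly(A) RNA sequencing with random priming and PCR, and the labels' protocols state no strand-specific step. Per gene, the authors deposited expected counts, which need not be whole. The authors also deposited TPM and FPKM per library, and a signal made of counts divided by 1 factor per library, which was not used. Named without roles in the submitters' processing notes are build GRCz11, RSEM 1.3.1, Bowtie2 2.3.4.3, HISAT and DESeq2 1.4.5; the annotation is not given in the sources used here.

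Expected counts were rounded to whole numbers. The test ran in R 4.3.3 with edgeR 4.0.16, with the filterByExpr filter, TMM factors and a two-sided quasi-likelihood test of the group alone with robust dispersions, with Benjamini-Hochberg adjustment over 14096 genes and a threshold of 0.05. Standard errors are the absolute log2 fold change over the square root of F. Totals were 23431234, 24890856 and 24657609 in lcat OE 1 to 3 and 23695610, 23336591 and 23375499 in CTL 1 to 3. Pairs of replicates differed by more than counting noise (chi-square over its degrees of freedom, 10.5 to 33.2). Alternatives used DESeq2 1.42.0, limma 3.58.1 on log2(FPKM + 1) and on log2 TPM with pseudocounts of 1 and 0.1, other scalings and filters, a replicate block and leaving out each library. A comparison of 2 against 2 libraries was chosen after seeing the data. The main edgeR fit was also run on simulated counts, in which far fewer genes were changed than were called here. The alternatives were not run on simulated counts.

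The members and lists were chosen with earlier results of these data known. Named were up to 4 called genes from each list, those of smallest p, and the 5 candidates most like apobb.1. Other list genes that are named were chosen after their values were seen. Of the list genes, vamp7 and hsd17b13 were not matched. No sequences were used here.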

Additional observations from a re-analysis of the deposited data

How the results depend on the processing

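The apoba fall and the direction of the apoB sum and of the paralog shares held in all alternatives run, though with 1 library left out the share differences ran from -6.26 to -3.23 points for apoba, 2.61 to 6.21 for apobb.1 and 0.050 to 0.62 for apobb.2. The apobb.1 value became a call with library totals (-0.36), on log2(TPM + 1) (-0.44) and on log2(TPM + 0.1) (-0.45), and ran from -0.38 to -0.14, never called, with 1 library left out. The sar1b value ran from 0.18 to 0.27 with 1 library left out, and was 0.13 with library totals, 0.12 on log2(FPKM + 1) and 0.029 with either TPM pseudocount. The sign of apobb.2, never called, turned to -0.040 with library totals, -0.029 with the replicate block, -0.11 and -0.20 on log2(TPM + 1) and log2(TPM + 0.1) and -0.064 on log2(FPKM + 1), and ran from -0.20 to 0.29 with 1 library left out. The sign of mttp, never called, turned to 0.073 with 2 against 2 libraries and ran from -0.10 to 0.021 with 1 left out; it was -0.14 with library totals and on log2(FPKM + 1), and -0.23 and -0.24 on log2(TPM + 1) and log2(TPM + 0.1). That of fabp10a, never called, turned to -0.025 on log2(TPM + 1) and log2(TPM + 0.1). The cause of these changes was not tested.

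Genes called higher numbered 2293 and lower 2303. With at least 5 CPM in 3 libraries, where only 6580 genes were tested, these were 1335 and 1369. On log2(TPM + 1) and log2(TPM + 0.1) the higher genes were 1344 and 1367. Of all calls, 49.9% were higher with TMM factors, 38.8% with library totals and 30.8% on log2(TPM + 1), and all genes together had a median of -0.18 on log2(TPM + 0.1). Of the pathway genes, 4 were higher and 23 lower with library totals, 1 and 24 with either TPM pseudocount, and 4 were higher on log2(FPKM + 1). With 1 library left out, 5 to 14 were higher.

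Deviations of same-numbered libraries had correlations of -0.08, -0.11 and 0.04 for numbers 1 to 3, and no library correlated best with its own number. The highest correlation was 0.23, between lcat OE 1 and CTL 2. These values do not settle whether the libraries were made in pairs. With the replicate block 2040 genes were higher and 2152 lower, and apoba was at -0.58 (edgeR adjusted p = 0.0122). Depth limits tm6sf2, with 12 counts in lcat OE and 14 in CTL.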
